A study of Mus musculus with 18 samples.

Results

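The genes described here are 35 components of the unfolded protein response and the integrated stress response. They were taken by symbol from a table of 52550 genes, and each symbol was found. The table holds RNA sequencing values of oocytes, of cumulus cells (the granulosa-derived support cells attached to an oocyte) and of blastocysts (the embryo before implantation). All were from C57BL/6 mice, and all 3 tissues were taken after exposure to PM2.5 (fine airborne particulate matter) and after filtered air, with 3 libraries in each of the 6 groups, 18 in all. The labels give the exposure in the genotype field and name no allele beyond the strain, no age, no dose and no length of exposure, nor whether replicate libraries stem from different animals or pools. Every p-value is thus one of spread among libraries, and that spread may be technical.

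The unfolded protein response is set off when unfolded proteins build up in the endoplasmic reticulum (ER). The membrane sensors Ern1 (IRE1alpha), Atf6 and Eif2ak3 (PERK) then raise chaperones, disulfide isomerases and the machinery that removes misfolded proteins. Eif2ak3 and the amino acid sensor Eif2ak4 (GCN2) phosphorylate the translation factor eIF2alpha, which lowers protein synthesis while the transcription factor Atf4 is translated. That arm is called the integrated stress response. Atf4 protein is controlled largely at translation, and Xbp1 is switched on by splicing of its mRNA, so a value of total RNA per gene shows neither step.

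All values are the authors' log2(x + 1), where x is their normalized count, and a difference is one of log2 values, which understates changes of low genes. A gene was tested with limma when its mean over the libraries compared was at least 3, and it was called at a Benjamini-Hochberg adjusted p under 0.05 over all genes tested. Members below that level were also tested at a mean of at least 1 where said. The libraries had between 16426 and 17987 genes above 0. The oocyte marker list averaged 9.13 to 9.71 in oocyte libraries and 1.95 to 2.90 in cumulus libraries. The cumulus and granulosa list averaged 4.50 to 4.86 in cumulus libraries, and the blastocyst list averaged 6.64 to 7.04 in blastocysts, so each tissue carried the markers of its label. Cumulus libraries also carried the leukocyte list, at 2.90 to 3.61, against at most 0.10 in oocyte and blastocyst libraries. The part of leukocytes in the differences between tissues was not tested. Hemoglobin genes averaged 5.77 to 7.64 in 3 cumulus libraries (PM2.5 replicate 2, filtered air replicates 1 and 3) and at most 1.24 in the other libraries. Their part in any result was not tested beyond leaving those libraries out. In such samples fewer cells of a type and less RNA per cell cannot be told apart.

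Without a limit on level, most of the 35 members separated oocytes from cumulus cells in filtered air, in that the 3 libraries of one tissue lay wholly above or below those of the other. In oocytes 8 members were higher and 20 lower, against backgrounds of 26.7% and 34.1% of the 24637 genes above 0. Between oocytes and blastocysts 10 members were higher and 17 lower in oocytes, against 26% and 32.8% of genes. Between cumulus cells and blastocysts 17 were higher and 5 lower in cumulus cells, against 23.3% and 24.8% of genes. These backgrounds, and those given later for any level, are not matched to the level of the members. Of the 24637 genes, 10738 were tested at a mean of at least 1, as were 32 of the 35 members. At a mean of at least 3, 18 of 20 members did not overlap between oocytes and cumulus cells, beside 3542 of 3999 genes. Between oocytes and blastocysts 14 of 17 did not, beside 3567 of 4044 genes. Between cumulus cells and blastocysts 14 of 20 did not, beside 3301 of 4478 genes. Shares called at the levels tested are given below. The number of members with a mean of at least 3 was 16 in filtered-air oocytes, 22 in cumulus cells and 20 in blastocysts. Another 4 members had a mean under 0.1 in filtered-air oocytes, namely Herpud1, Xbp1, Asns and Trib3, and no member did in the other tissues.

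**Figure D1:**
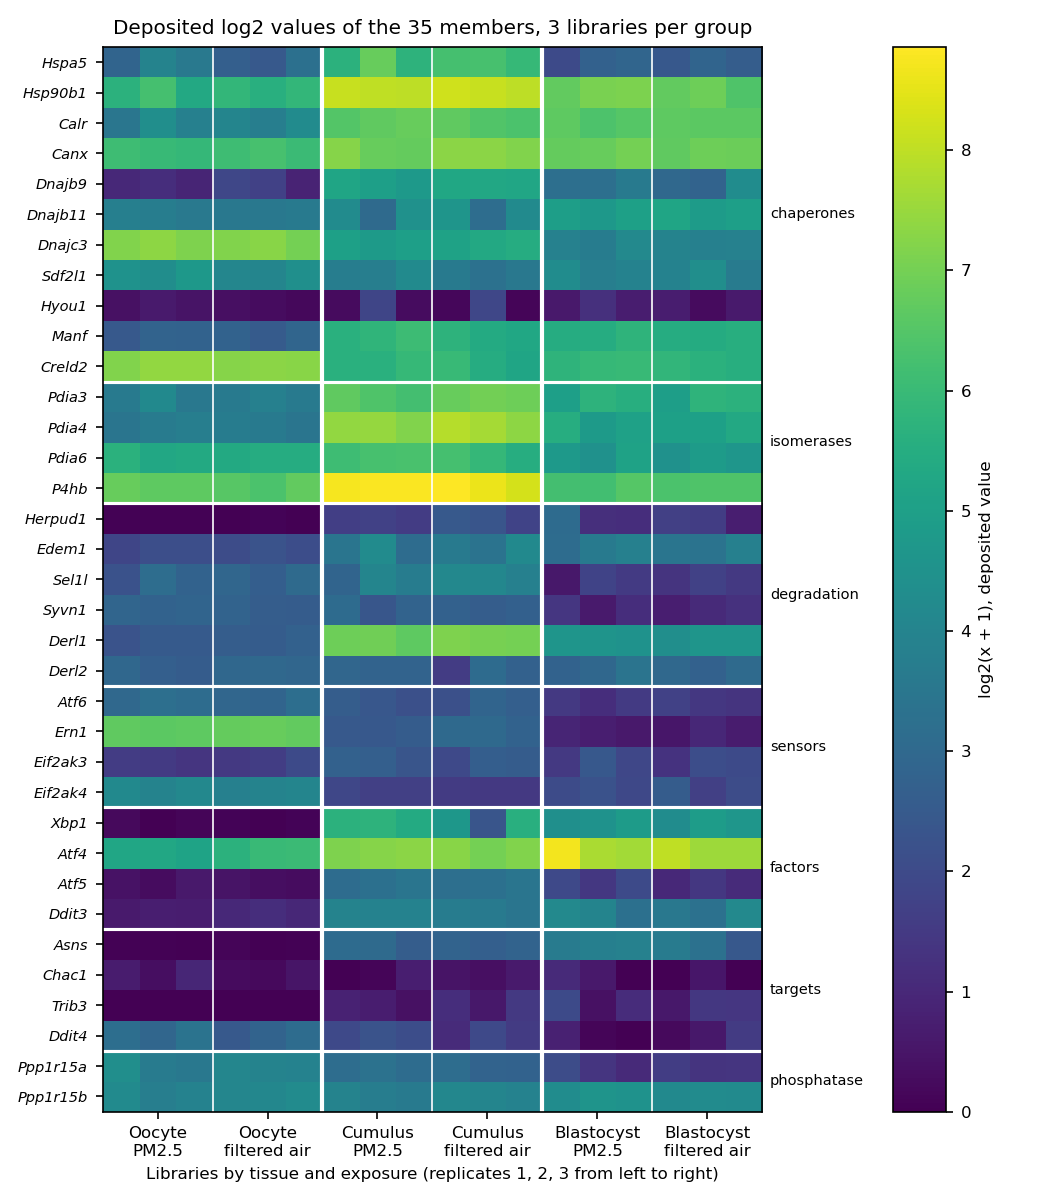
Deposited log2(x + 1) of each of the 35 members (rows, ordered by role) in each of the 18 libraries (columns, 3 per group), with colour as the level. Herpud1, Xbp1, Asns and Trib3 lie at or near 0 in the oocyte columns, where Ern1, Dnajc3 and Creld2 are at about 7, and the cumulus columns are the highest for Hspa5, Derl1 and Pdia4.

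By limma, 17 of the 20 members tested between oocytes and cumulus cells in filtered air were called (87.6% of 3999 genes were), 5 higher in oocytes (background 44.7%) and 12 lower (42.8%). These counts, and the tests of single genes below, hold only genes above the level tested. A gene under that level in one tissue passes it only through the other, where it then had to be higher. The direction of such a call was thus fixed. At a mean of at least 1, 26 of 32 members were called (86.4% of genes), 7 higher (37.5%) and 19 lower (48.9%). Between oocytes and blastocysts 14 of 17 were called (87.1% of 4044 genes), 5 higher (39.5%) and 9 lower (47.6%). At a mean of at least 1 it was 24 of 30 (86.2%), 10 higher (36.8%) and 14 lower (49.4%). Median centring moved the median of all genes tested there from -0.30 to 0.06 and quantile normalization to 0.10, and both gave 7 members higher and 8 lower. Between cumulus cells and blastocysts 12 of 20 were called (69.3% of 4478 genes), 10 higher in cumulus cells (24.9%) and 2 lower (44.5%). At a mean of at least 1 it was 19 of 33 (65.7%), 17 higher (29.7%) and 2 lower (36.1%). With quantile normalization the all-gene median there went from -0.35 to -0.09, the calls over all genes went from 1113 higher and 1991 lower to 1407 and 1584, and 10 members were higher and 0 lower.

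The PM2.5 libraries of the same tissues gave the tissue comparison a second time. All 17 members called between oocytes and cumulus cells were called there in the same direction, as were all 14 between oocytes and blastocysts and 11 of the 12 between cumulus cells and blastocysts. The exception was Canx, at 0.44 in filtered air (SE 0.12, adjusted p = 0.00955) and 0.09 in PM2.5 (SE 0.17, adjusted p = 0.658). The repeat was not counted over all genes, of which 87.6%, 87.1% and 69.3% were called in these comparisons in filtered air. It is therefore not shown to be particular to the members.

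**Figure D2:**
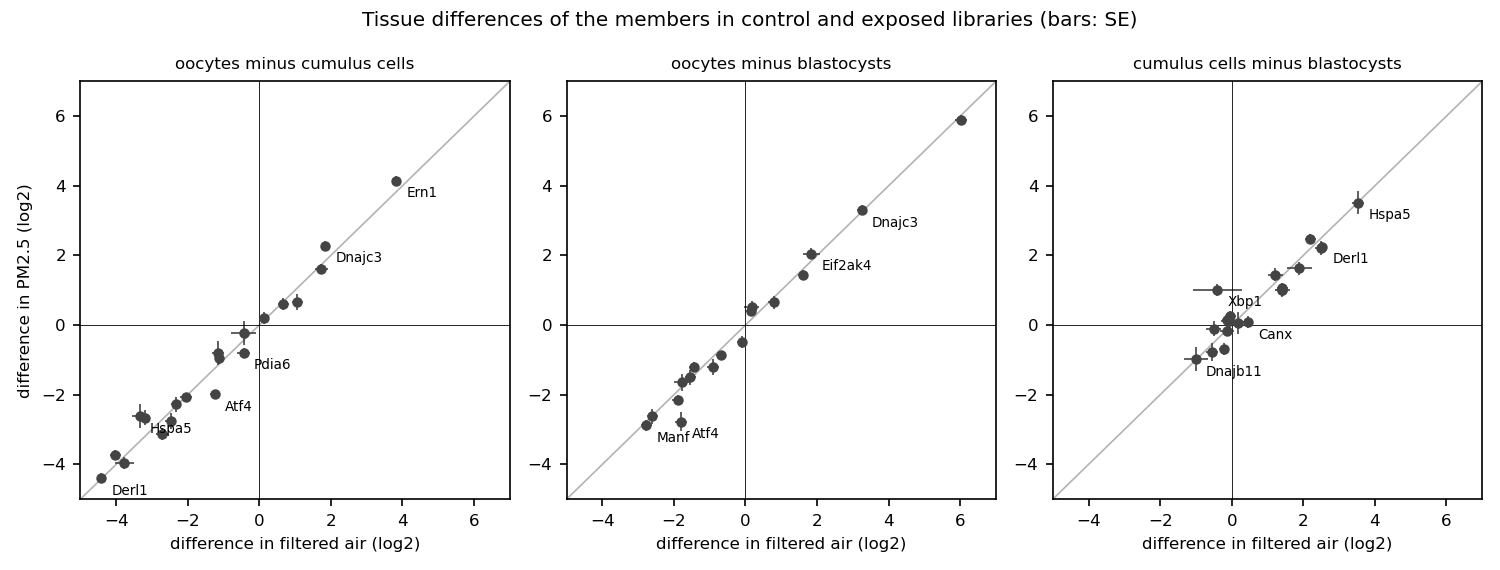
Difference between 2 tissues in filtered air (x axis, log2) against the same difference in PM2.5 libraries (y axis, log2) for members tested in both; bars are standard errors and the grey line marks equality. The points follow the line, from Derl1 at -4.43 to Ern1 at 3.82 in the first panel, and Xbp1 in the third panel lies off it, at -0.40 in filtered air and 1.02 in PM2.5.

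Of the 11 chaperones and their partners, 10 were tested between oocytes and cumulus cells, and 6 were lower in oocytes (42.8% of all genes were) and 3 higher (44.7%). Hspa5 (BiP, chromosome 2: 34772090 to 34776529), the ER Hsp70 that holds the sensors inactive, had filtered-air values of 2.69, 2.47 and 3.28 in oocytes, 6.24, 6.29 and 5.95 in cumulus cells, and 2.43, 2.85 and 2.61 in blastocysts. The cumulus libraries were thus apart from both others, which overlapped. Hspa5 was lower in oocytes than in cumulus cells by -3.35 (SE 0.22, adjusted p = 2.68e-06), and higher in cumulus cells than in blastocysts by 3.53 (SE 0.17, adjusted p = 2.83e-07). It passed the level tested only through cumulus cells, which fixed the direction of both calls.

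Calr, a lectin chaperone that binds calcium, was low in oocytes alone, with 4.04, 3.77 and 4.26 there, 6.70, 6.47 and 6.34 in cumulus cells, and 6.67, 6.62 and 6.61 in blastocysts. Manf, a secreted protein induced by ER stress, had 2.78, 2.54 and 2.89 in oocytes, 5.71, 5.42 and 5.27 in cumulus cells, and 5.49, 5.46 and 5.56 in blastocysts. For both genes every oocyte library lay below every library of the other tissues, and the other tissues overlapped. Against blastocysts, oocytes were lower by -2.61 for Calr (SE 0.15, adjusted p = 8.39e-07) and by -2.77 for Manf (SE 0.15, adjusted p = 5.41e-07). Manf passed the level tested there only through blastocysts, which fixed the direction of its call. Dnajb9 (ERdj4), a partner of Hspa5, had 1.89, 1.72 and 0.88 in oocytes, 5.27, 5.30 and 5.24 in cumulus cells, and 2.99, 2.82 and 4.32 in blastocysts, so all 3 tissues were apart.

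Dnajc3 (p58IPK), a partner of Hspa5 also known to inhibit eIF2alpha kinases, was among those higher in oocytes. It had 7.19, 7.29 and 7.0 in oocytes, 5.12, 5.34 and 5.49 in cumulus cells, and 3.96, 3.88 and 3.91 in blastocysts, with no overlap between tissues. The oocyte excess was 1.85 over cumulus cells (SE 0.13, adjusted p = 4.36e-06) and 3.25 over blastocysts (SE 0.13, adjusted p = 8.56e-08). Creld2, an ER protein induced by stress, had 7.25, 7.31 and 7.29 in oocytes, 5.96, 5.49 and 5.21 in cumulus cells, and 5.84, 5.65 and 5.54 in blastocysts. It was higher in oocytes by 1.74 (SE 0.18, adjusted p = 4.65e-05) and 1.61 (SE 0.13, adjusted p = 5.03e-06), while the other tissues overlapped. Sdf2l1, part of an Hspa5 complex, was higher in oocytes than in cumulus cells by 0.68 (adjusted p = 0.00477).

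Hsp90b1 (GRP94), the ER Hsp90, was lower in oocytes than in cumulus cells by -2.33 (adjusted p = 6.55e-07), and the lectin chaperone Canx by -1.13 (adjusted p = 2.32e-05). Dnajb11 (ERdj3) had 4.62, 3.16 and 4.25 in filtered-air cumulus cells and 5.19, 4.85 and 5.0 in blastocysts, a difference of -1.01 (SE 0.33, adjusted p = 0.0232). That call was lost with no limit on level (adjusted p = 0.0974), with quantile normalization (-0.78, adjusted p = 0.0741) and with median centring (-0.75, adjusted p = 0.0706), and without blastocyst filtered air replicate 1 (-0.92, adjusted p = 0.0712) or 3 (-1.01, adjusted p = 0.0577). Without filtered-air cumulus replicate 2, the lowest cumulus library, the difference was -0.58. Hyou1, an exchange factor of Hspa5, was under 1 in all but 3 libraries. Its highest values were 1.86 and 1.88, in replicate 2 of both cumulus groups, where Dnajb11 was lowest at 3.05 and 3.16. Hyou1 was singled out here after its values were seen.

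Promoters were read to see what the chaperones share beyond their level. RefSeq's table (GRCm38.p6, the mm10 build) held 30 of the 35 members, from 250 bases before to 50 after each start. The ER stress response element, searched on both strands as CCAAT, any 9 bases and CCACG, lay in 8 of the 30 (26.7%), against 37 of 27025 genes (0.137%). The 8 were Hspa5, Hsp90b1, Calr, Canx, Dnajc3, Creld2, Pdia6 and Syvn1. Several of these genes are textbook carriers of the element, so their place on such a list is not independent of it. The unfolded protein response element TGACGTGG was in none of the 30 windows (0.714% of genes), and the CEBP-ATF response element TGATGNAA was in 4 (13.3%, against 4.51%), namely Herpud1, Asns, Chac1 and Trib3.

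The genes below carry the same element and had opposite tissue levels. Hspa5 (chr2:34771840-34772139, plus strand), Hsp90b1 (chr10:86705395-86705694, minus strand) and Calr (chr8:84846882-84847181, minus strand) were lower in oocytes than in cumulus cells. Dnajc3 (chr14:118937682-118937981, plus strand) and Creld2 (chr15:88819396-88819695, plus strand) were higher. The windows are 300 bases on GRCm38.p6, written 5′ to 3′ in the direction of the gene, with the element in capitals.
Hspa5: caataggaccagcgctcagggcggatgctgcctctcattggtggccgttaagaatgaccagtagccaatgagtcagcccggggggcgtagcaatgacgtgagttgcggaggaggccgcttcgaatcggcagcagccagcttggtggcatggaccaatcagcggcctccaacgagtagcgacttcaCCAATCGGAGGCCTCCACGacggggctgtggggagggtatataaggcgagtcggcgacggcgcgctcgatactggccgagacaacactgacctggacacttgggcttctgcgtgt
Hsp90b1: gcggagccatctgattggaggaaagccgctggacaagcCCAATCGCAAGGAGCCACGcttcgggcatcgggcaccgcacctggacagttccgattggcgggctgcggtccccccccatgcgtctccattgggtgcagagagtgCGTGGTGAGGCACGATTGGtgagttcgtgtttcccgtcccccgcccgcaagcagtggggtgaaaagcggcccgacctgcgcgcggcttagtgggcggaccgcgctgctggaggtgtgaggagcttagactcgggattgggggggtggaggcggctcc
Calr: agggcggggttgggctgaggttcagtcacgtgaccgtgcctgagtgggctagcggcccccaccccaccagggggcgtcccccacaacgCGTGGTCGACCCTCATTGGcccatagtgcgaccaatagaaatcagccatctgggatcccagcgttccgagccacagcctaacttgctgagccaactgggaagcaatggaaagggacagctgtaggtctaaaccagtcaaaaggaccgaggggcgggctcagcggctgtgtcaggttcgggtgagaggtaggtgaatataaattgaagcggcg
Dnajc3: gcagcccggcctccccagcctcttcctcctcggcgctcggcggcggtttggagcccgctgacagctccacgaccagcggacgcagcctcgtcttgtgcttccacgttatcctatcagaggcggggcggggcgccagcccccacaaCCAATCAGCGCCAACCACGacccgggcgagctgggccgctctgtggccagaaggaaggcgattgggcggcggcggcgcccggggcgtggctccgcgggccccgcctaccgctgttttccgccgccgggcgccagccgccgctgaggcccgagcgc
Creld2: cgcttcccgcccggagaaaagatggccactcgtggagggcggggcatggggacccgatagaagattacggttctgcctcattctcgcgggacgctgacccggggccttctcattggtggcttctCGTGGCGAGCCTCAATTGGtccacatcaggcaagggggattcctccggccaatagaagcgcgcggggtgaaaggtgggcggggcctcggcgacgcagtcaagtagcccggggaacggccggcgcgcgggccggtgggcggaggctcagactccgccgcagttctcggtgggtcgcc
The element began 65 bases before the start of Hspa5, 212 and 107 before Hsp90b1, 162 before Calr, 105 before Dnajc3 and 126 before Creld2. Of 7 carriers tested between oocytes and cumulus cells, 2 were higher and 4 lower in oocytes, and of the 10 tested members whose window lacks it, 3 were higher and 6 lower. Over all genes tested there, 44.7% were called higher and 42.8% lower. A match describes letters and shows no binding.

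The disulfide isomerases form and reshuffle bonds in folding proteins. Of the 4, 3 were lower in oocytes than in cumulus cells (42.8% of all genes were), and all 4 were higher in cumulus cells than in blastocysts (24.9% of all genes). Pdia4 (ERp72) had 3.72, 3.65 and 3.46 in filtered-air oocytes, 7.87, 7.67 and 7.37 in cumulus cells, and 5.04, 5.05 and 5.36 in blastocysts, with the tissues apart. The oocyte difference from cumulus cells was -4.03 (SE 0.15, adjusted p = 1.17e-07). P4hb (PDI) had 6.56, 6.36 and 6.73 in oocytes, 8.86, 8.61 and 8.29 in cumulus cells, and 6.36, 6.40 and 6.41 in blastocysts. Cumulus cells exceeded blastocysts by 2.19 (SE 0.15, adjusted p = 2.8e-06), and oocytes and blastocysts overlapped. Pdia3 (ERp57) was lower in oocytes than in cumulus cells by -3.18 (SE 0.11), and Pdia6 missed the threshold at -0.44 (adjusted p = 0.0543) although its libraries did not overlap.

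Among the 6 degradation genes, Derl1, a channel component for proteins leaving the ER, showed the largest difference of any member tested between oocytes and cumulus cells. It had 2.61, 2.56 and 2.75 in oocytes, 7.14, 7.04 and 7.02 in cumulus cells, and 4.39, 4.60 and 4.61 in blastocysts. Each tissue was apart from the others, and oocytes were lower than cumulus cells by -4.43 (SE 0.11, adjusted p = 1.38e-08) and than blastocysts by -1.89 (SE 0.15). In both comparisons Derl1 passed the level tested only through the other tissue, which fixed the direction of the calls. Sel1l, the adaptor of the ubiquitin ligase Syvn1, was lower in oocytes than in cumulus cells by -1.15 (adjusted p = 0.000254). Sel1l passed the level tested there only through cumulus cells, which fixed the direction of that call. Its blastocyst values were 1.32, 1.71 and 1.48, and at a mean of at least 1 oocytes exceeded them by 1.37 (adjusted p = 0.000204). Syvn1 did not separate oocytes from cumulus cells (-0.01, adjusted p = 0.937 at a mean of at least 1) and was higher in oocytes than in blastocysts by 1.65. Edem1, which hands over misfolded glycoproteins, was lower in oocytes than in cumulus cells by -1.58 and than in blastocysts by -1.42 at that level, and Derl2, a relative of Derl1, was not called between oocytes and cumulus cells (0.48). Herpud1, an ER stress target of the ligase complex, was at most 0.10 in every oocyte library and between 0.73 and 3.10 in the other libraries.

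Ern1, the kinase and nuclease that splices Xbp1 (chromosome 11: 106397620 to 106487796), was the member with the largest excess in oocytes. Its filtered-air values were 6.77, 6.80 and 6.72 in oocytes, 3.04, 3.01 and 2.77 in cumulus cells, and 0.54, 1.0 and 0.69 in blastocysts. The order oocyte, cumulus, blastocyst had no overlap, and it was the same in PM2.5, where oocytes had 6.68, 6.62 and 6.65. Oocytes were higher by 3.82 than cumulus cells (SE 0.12, adjusted p = 3.57e-08) and by 6.02 than blastocysts (SE 0.17, adjusted p = 1.27e-08). In both comparisons Ern1 passed the level tested only through oocytes, which fixed the direction of the calls. Eif2ak4 had 3.87, 3.95 and 4.05 in oocytes, 1.53, 1.47 and 1.48 in cumulus cells, and 2.59, 1.69 and 2.08 in blastocysts. It was higher in oocytes than in blastocysts by 1.83 (SE 0.24, adjusted p = 0.000124) and, at a mean of at least 1, than in cumulus cells by 2.46 (adjusted p = 8.23e-07). Against blastocysts Eif2ak4 passed the level tested only through oocytes, which fixed the direction of that call. Eif2ak3, the kinase of the ER arm, had 1.46, 1.61 and 1.98 in oocytes and 1.95, 2.66 and 2.57 in cumulus cells, and these ranges met, although the difference of -0.71 was called at a mean of at least 1 (adjusted p = 0.0241). Atf6 had 2.92, 2.85 and 3.21 in oocytes and 1.73, 1.43 and 1.34 in blastocysts, a difference of 1.5 at a mean of at least 1 (adjusted p = 0.000107).

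Xbp1, the substrate of Ern1 (chromosome 11: 5520641 to 5525993), was near 0 in the tissue where Ern1 was highest. Its oocyte values were 0.21, 0 and 0.12 in PM2.5 and 0.10, 0 and 0.07 in filtered air. Cumulus cells had 5.71, 5.73 and 5.41 in PM2.5 and 4.70, 2.35 and 5.59 in filtered air, and blastocysts had 4.41, 4.51 and 4.87, then 4.32, 4.88 and 4.64. Every oocyte library was below every other library, and filtered-air cumulus replicate 2 stood apart from the other cumulus libraries. At a mean of at least 1, filtered-air oocytes were lower by -4.16 than cumulus cells (SE 0.75, adjusted p = 0.00129) and by -4.56 than blastocysts (SE 0.18, adjusted p = 2.85e-07). Xbp1 passed that level only through the other tissues, which fixed the direction of both calls. Values at 0 on this scale give no true fold, so these are differences of log2(x + 1) only.

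Ddit3 (CHOP), a transcription factor downstream of Atf4, had 1.01, 1.17 and 0.99 in filtered-air oocytes, 3.71, 3.64 and 3.46 in cumulus cells, and 3.53, 3.31 and 4.19 in blastocysts. Oocytes lay below both others, which overlapped; at a mean of at least 1 the difference from cumulus cells was -2.55 (SE 0.13, adjusted p = 1.32e-06). Atf4 itself (chromosome 15: 80255184 to 80257545) had 5.70, 6.00 and 6.04 in oocytes, 7.29, 7.01 and 7.17 in cumulus cells, and 8.01, 7.54 and 7.57 in blastocysts. The tissues did not overlap, and oocytes were lower by -1.24 than cumulus cells (SE 0.13, adjusted p = 4.57e-05) and by -1.79 than blastocysts (SE 0.17, adjusted p = 1.87e-05). Cumulus cells differed from blastocysts by -0.55 (SE 0.16, adjusted p = 0.0123). That call was lost with quantile normalization (-0.14, adjusted p = 0.334), with median centring (-0.30, adjusted p = 0.0987) and without filtered-air cumulus replicate 2 (-0.48, adjusted p = 0.0522). Atf5, a relative of Atf4, had means of 0.36 in filtered-air oocytes, 3.31 in cumulus cells and 1.19 in blastocysts.

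**Figure D3:**
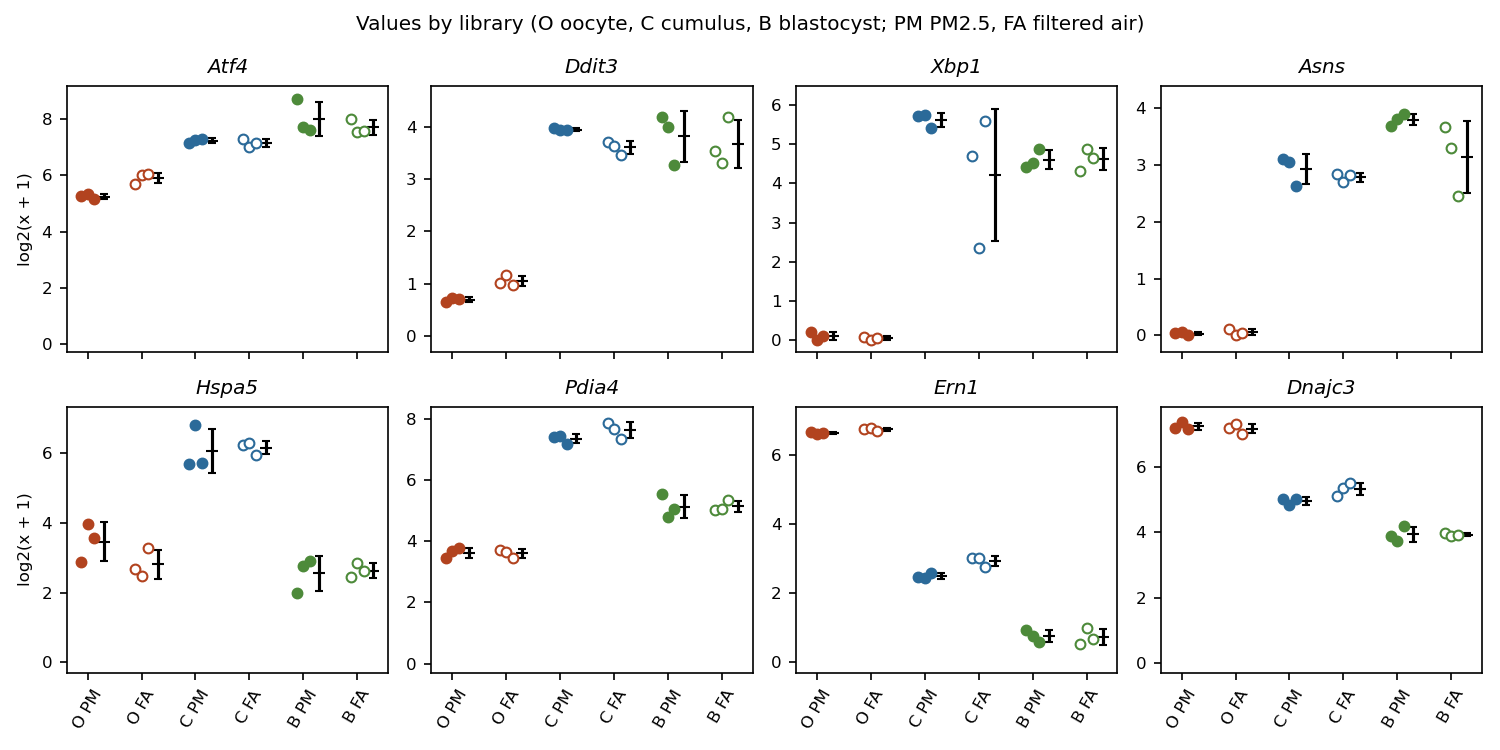
Values in each library (points, log2(x + 1)) of Atf4, Ddit3, Xbp1, Asns, Hspa5, Pdia4, Ern1 and Dnajc3, filled for PM2.5 and open for filtered air, with the mean and SD of 3 libraries as black bars. Ern1 and Dnajc3 are highest in oocytes, Xbp1 and Asns are near 0 there, and the PM2.5 oocyte points of Atf4, 5.15 to 5.32, lie below the filtered-air points, 5.70 to 6.04.

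Of the 4 targets of the integrated stress response listed, Asns and Trib3 were near 0 in oocytes and Ddit4 was higher there than in the other tissues. Asns, which makes asparagine, was at most 0.10 in all oocyte libraries, between 2.63 and 3.10 in cumulus libraries and between 2.45 and 3.90 in blastocysts. At a mean of at least 1 the oocyte difference in filtered air was -2.74 from cumulus cells (SE 0.12, adjusted p = 4.96e-07) and -3.10 from blastocysts (SE 0.30, adjusted p = 3.32e-05). Asns passed that level only through the other tissues, which fixed the direction of both calls. Its window holds the CEBP-ATF response element 23 bases before the start (chr6:7693160-7693459, minus strand), given here in capitals.
Asns: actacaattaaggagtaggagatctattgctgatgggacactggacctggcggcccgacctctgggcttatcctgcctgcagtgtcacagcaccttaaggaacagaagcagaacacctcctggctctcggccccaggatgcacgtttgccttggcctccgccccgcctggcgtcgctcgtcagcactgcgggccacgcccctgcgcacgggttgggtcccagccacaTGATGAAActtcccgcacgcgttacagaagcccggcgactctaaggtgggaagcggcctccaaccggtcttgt
Trib3, a pseudokinase that restrains Atf4 and Ddit3 signalling, was listed at 0 in all 6 oocyte libraries and between 0.39 and 1.99 in the other 12. Chac1, which degrades glutathione, was at most 1.06 in every library, and no test applied to it. Ddit4 (REDD1), an inhibitor of mTORC1, had 2.47, 2.83 and 3.13 in filtered-air oocytes, 1.08, 1.96 and 1.55 in cumulus cells and 0.23, 0.58 and 1.54 in blastocysts. At a mean of at least 1 it was higher in oocytes by 1.28 (adjusted p = 0.00277) and 2.03 (adjusted p = 0.000926). Against blastocysts Ddit4 passed that level only through oocytes, which fixed the direction of that call.

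Of the regulatory subunits that bring phosphatase to eIF2alpha, the stress-induced Ppp1r15a (GADD34) had 4.07, 3.97 and 3.91 in filtered-air oocytes, 3.18, 2.81 and 2.79 in cumulus cells, and 1.59, 1.34 and 1.37 in blastocysts. The tissues did not overlap, and oocytes exceeded cumulus cells by 1.06 (SE 0.15, adjusted p = 0.000294). Ppp1r15a passed the level tested there only through oocytes, which fixed the direction of the call. The constitutive Ppp1r15b (CReP) had 4.07, 4.10 and 4.27 in oocytes, 4.09, 4.05 and 3.92 in cumulus cells and 4.19, 4.27 and 4.24 in blastocysts. Its oocyte differences were 0.13 from cumulus cells (95% interval -0.16 to 0.41) and -0.09 from blastocysts (95% interval -0.41 to 0.23), neither called.

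Exposure was compared with filtered air within each tissue. No member was called in any tissue. The counts were 0 of 18 tested in oocytes, 0 of 23 in cumulus cells and 0 of 20 in blastocysts, where limma called 9 of 4080 genes (0.221%), 8 of 4780 (0.167%) and 0 of 4834 (0%). At an unadjusted p under 0.05 there were 1, 4 and 0 members, beside 8.33%, 23.3% and 3.95% of genes. At a mean of at least 1, with 27, 32 and 31 members tested, 0 were called, beside 0.197%, 0.0763% and 0.0199% of genes, and 1, 7 and 1 had an unadjusted p under 0.05. The share of all genes with such an unadjusted p was not counted at that level, so these last counts have no background. The median difference of tested members was 0.04 in oocytes, -0.07 in cumulus cells and 0.03 in blastocysts, against -0.04, 0.09 and -0.01 for all genes tested.

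**Figure D4:**
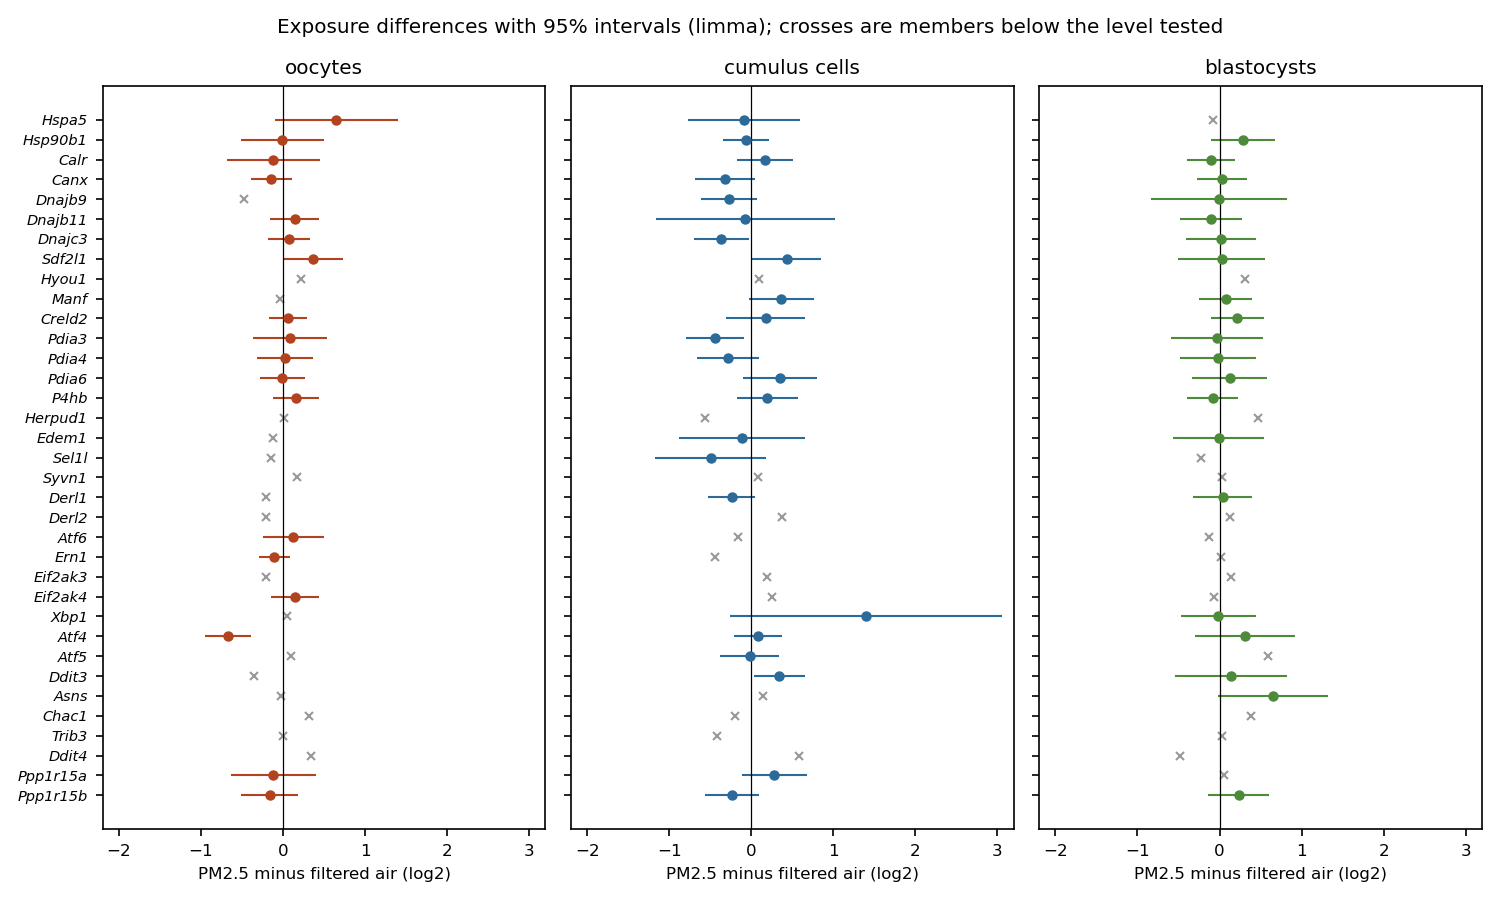
PM2.5 minus filtered air (log2) for each of the 35 members in the 3 tissues; points with bars are limma differences with 95% intervals, and grey crosses are members below the level tested. In oocytes the interval of Atf4, -0.96 to -0.38, lies to the left of 0. It is not adjusted for the genes tested, and Atf4 was not called (limma, adjusted p = 0.121). That difference was known when the genes were chosen. In cumulus cells the interval of Xbp1, -0.25 to 3.06, is the widest.

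In oocytes, Atf4 had 5.25, 5.32 and 5.15 after PM2.5 and 5.70, 6.00 and 6.04 after filtered air. All exposed libraries lay below all control libraries. The difference was -0.67 (SE 0.12, 95% interval -0.96 to -0.38) and was not called (adjusted p = 0.121). Over the alternatives the difference lay between -0.78 and -0.61 and the adjusted p between 0.121 and 0.448. This difference was known when the genes were chosen, and it is given as a description. The mitochondrial share of the summed values moved with the groups, at 16.7% to 17.9% in exposed and 11.4% to 16.0% in control oocyte libraries, and its part in the difference was not tested.

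No other member tested in oocytes had an unadjusted p under 0.05. Without a limit on level, 3 members beside Atf4 had all exposed libraries below the controls (Ddit3, Derl1 and Ern1), against 5.33% of 22442 genes, and 1 had them above (Hyou1), against 4.28%. Among genes at the level tested, 2 of 18 members did not overlap between exposures, beside 626 of 4080 genes. Ddit3 had 0.65, 0.74 and 0.71 after PM2.5 and 1.01, 1.17 and 0.99 after filtered air, a difference of -0.36 at a level too low for the test. Derl1 differed by -0.21, Ern1 by -0.11 (SE 0.08, adjusted p = 0.727) and Hyou1 by 0.22. Hspa5 had 2.86, 3.95 and 3.57 after PM2.5 and 2.69, 2.47 and 3.28 after filtered air. These overlap, with a difference of 0.65 (SE 0.32, 95% interval -0.10 to 1.40, adjusted p = 0.633). Sdf2l1 had 4.50, 4.35 and 4.73 against 4.06, 4.03 and 4.41, a difference of 0.36 (SE 0.16, adjusted p = 0.587) with overlap.

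In cumulus cells, 4 tested members had an unadjusted p under 0.05, and none was called. Pdia3 had 6.70, 6.42 and 6.22 after PM2.5 and 6.79, 6.97 and 6.90 after filtered air, a difference of -0.44 (SE 0.15, adjusted p = 0.185). Dnajc3 had 5.02, 4.82 and 5.0 against 5.12, 5.34 and 5.49, a difference of -0.37 (SE 0.14, adjusted p = 0.2). Both were below the controls in every exposed library. Ddit3 had 3.97, 3.93 and 3.93 against 3.71, 3.64 and 3.46, a difference of 0.34 (SE 0.13, adjusted p = 0.2). Sdf2l1 had 3.74, 3.79 and 4.22 against 3.63, 3.31 and 3.53, a difference of 0.43 (SE 0.18, adjusted p = 0.209) that was 0.28 without PM2.5 replicate 3. Both were above the controls in every exposed library. At any level 3 members were wholly higher (8.86% of 22363 genes) and 6 wholly lower (5.3%). Those not yet named were Eif2ak4 at 0.25, Derl1 at -0.24, Dnajb9 at -0.27, Ern1 at -0.44 and Herpud1 at -0.56. Among genes at the level tested, 6 of 23 members did not overlap between exposures, beside 1257 of 4780 genes. Leaving out PM2.5 replicate 1 gave 2 calls among members, Pdia3 (-0.56, adjusted p = 0.0425) and Canx (-0.47, adjusted p = 0.0446), and 558 over all genes. Atf4 had 7.14, 7.26 and 7.31 after PM2.5 against 7.29, 7.01 and 7.17, which overlap, a difference of 0.08 (SE 0.13, 95% interval -0.21 to 0.37). Hspa5 had 5.68, 6.80 and 5.73 against 6.24, 6.29 and 5.95, which also overlap, a difference of -0.09 (SE 0.30) that lay between -0.45 and 0.11 with single libraries left out.

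Xbp1 in cumulus cells had 5.71, 5.73 and 5.41 after PM2.5 against 4.70, 2.35 and 5.59, which overlap. The difference was 1.40 (SE 0.71, adjusted p = 0.253), and without filtered-air replicate 2 it was 0.47. Leaving out the 3 libraries rich in hemoglobin, an alternative chosen after the data were seen, left that replicate as the only control and gave 3.21 (SE 0.39, adjusted p = 1.26e-13), under the assumption that a lone library varies like the others. Marker lists of other cell types in cumulus libraries are given as values without a test. Those of the leukocyte and oocyte lists overlapped between exposures. The antibody-secreting list (4 of 5 genes found, Jchain under 0.1 in both groups) averaged 1.71 to 1.99 after PM2.5 and 0 to 1.37 after filtered air. Its gene Ighm had means of 4.14 in PM2.5 and 4.28 in filtered-air oocytes, above its cumulus means of 2.98 and 0.55. The oviduct list, with Krt7, Pax8 and Foxj1 under 0.1, averaged 0.24 to 0.48 against 0.07 to 0.11, with Ovgp1 at a mean of 1.45 against 0.11 and Epcam at 0.36 and 0.35. The stroma and smooth muscle list, with Dcn under 0.1, averaged 0.86 to 1.0 against 0.62 to 0.69. The blastocyst list, with Cdx2 at 0, averaged 1.48 to 1.76 against 1.37 to 1.43, and the oocyte list 2.14 to 2.90 against 1.95 to 2.33. The leukocyte list averaged 2.90 to 3.61 against 3.52 to 3.54. Its neutrophil gene S100a9 had a mean of 0.61 against 3.12. The other genes of that list had higher means after PM2.5. These were Cd52 (5.44 against 4.71), Tyrobp (4.38 against 3.99), Ptprc (0.46 against 0.18) and Lyz2 (5.72 against 5.65). Whether such cells were present, and their part in the cumulus differences, was not tested.

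In blastocysts no member had an unadjusted p under 0.05. Asns had 3.69, 3.81 and 3.90 after PM2.5 and 3.68, 3.30 and 2.45 after filtered air, without overlap, a difference of 0.65 (SE 0.30, adjusted p = 0.998). Its lowest exposed and highest control library differed only in the second decimal. Ppp1r15b was also wholly higher, by 0.23 (SE 0.17, adjusted p = 0.998). Of the 35 members these 2 were wholly higher and 0 wholly lower, beside 3.55% and 3.6% of 22646 genes. Among genes at the level tested, 2 of 20 members did not overlap between exposures, beside 412 of 4834 genes. Atf4 had 8.71, 7.72 and 7.62 against 8.01, 7.54 and 7.57, a difference of 0.31 (SE 0.27, 95% interval -0.30 to 0.92) that was -0.03 without PM2.5 replicate 1. Ddit3 had 4.18, 3.99 and 3.27 against 3.53, 3.31 and 4.19, which overlap. Hspa5 had 1.99, 2.77 and 2.90 against 2.43, 2.85 and 2.61, and Xbp1 differed by -0.02 (95% interval -0.47 to 0.44).

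Whether exposure differences themselves differed between tissues was tested as a difference of differences over all 18 libraries. No member was called, with 0 of 15 for oocytes minus cumulus cells (0.395% of 2027 genes called), 0 of 13 for oocytes minus blastocysts (0% of 2054) and 0 of 19 for cumulus cells minus blastocysts (0.259% of 3479). For Atf4, whose oocyte difference was known when the genes were chosen, the values are a description. The oocyte difference minus that in cumulus cells was -0.75 (SE 0.31, adjusted p = 0.24). Minus that in blastocysts it was -0.98 (SE 0.30, adjusted p = 0.421), and -0.64 without blastocyst PM2.5 replicate 1. Both use the same oocyte libraries. Dnajc3 gave 0.44 between oocytes and cumulus cells (SE 0.19, adjusted p = 0.275), and Ppp1r15b gave -0.47 between cumulus cells and blastocysts (adjusted p = 0.26). The Atf4 difference in oocytes is therefore not shown to be particular to oocytes.

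A further 114 genes of the same pathways were counted, from lists of ATF4 targets, tRNA synthetases, eIF2 subunits and kinases, ER translocation and glycosylation, folding, degradation and sensor processing. Exposure gave 0 calls among 43 tested in oocytes, 72 in cumulus cells and 68 in blastocysts, and 2, 15 and 4 at an unadjusted p under 0.05, beside 8.33%, 23.3% and 3.95% of all genes. The smallest p were those of Sec62 (-0.28, adjusted p = 0.559) and Sec61g (-0.62, adjusted p = 0.575) in oocytes, translocation channel components. In cumulus cells they were those of the prolyl isomerase Fkbp2 (0.68) and the oxidase Ero1l (-0.59), both at an adjusted p of 0.176. In blastocysts they were those of Stt3b (-0.35) and Iars (0.42), both at an adjusted p of 0.998.

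Between oocytes and cumulus cells in filtered air, 17 of 56 tested genes of these lists were higher in oocytes and 31 lower, beside 44.7% and 42.8% of all genes. Rpn2, Cnpy2 and Nupr1 had means under 1 in oocytes, and Ssr2 (2.54) and Erlec1 (1.49) had means under 3 there. These genes passed the level tested only through cumulus cells, and Ero1lb (cumulus mean 1.92) only through oocytes. Eif2b5, Phgdh and Psat1 did so below through blastocysts. The direction of all these calls was thus fixed, and their differences are a description. The ER translocation and glycosylation list had 14 lower and 2 higher of 19. Rpn2, a subunit of oligosaccharyltransferase, was lower by -5.04 (SE 0.18) and Ssr2, of the translocon-associated complex, by -4.97 (SE 0.18), while the catalytic subunit Stt3b was higher by 2.54 (SE 0.10). The folding list had 6 lower and 3 higher of 10, with Cnpy2 at -5.54 (SE 0.22) and Ero1lb at 2.20 (SE 0.20). The degradation list had 4 higher and 2 lower of 6, with Ubxn4 at 2.40 and Erlec1 at -3.17. Of 6 ATF4 targets, 3 were higher and 2 lower, with the folate enzyme Mthfd2 at 3.11 (SE 0.14) and the stress factor Nupr1 at -6.42 (SE 0.19).

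Against blastocysts, oocytes had 19 of 50 further genes higher and 23 lower, beside 39.5% and 47.6% of all genes. The eIF2 list had 5 of 7 lower, led by Eif2b5 at -5.72 (SE 0.15), a subunit of the exchange factor that phosphorylated eIF2 inhibits, and 2 higher, led by Eif2b1 at 2.16 (SE 0.13). Between cumulus cells and blastocysts 30 of 67 were higher and 20 lower, beside 24.9% and 44.5% of all genes. The translocation list had 13 higher and 1 lower of 22, the folding list 7 and 3 of 11, and the eIF2 list 1 and 6 of 7, with Eif2s2 at -4.21 (SE 0.25). The serine synthesis enzymes Phgdh and Psat1 were lower in cumulus cells by -2.87 (SE 0.31) and -2.64 (SE 0.25).

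Several members lie over other coding genes, and it is not stated whether counting used the strand. Reads of Hspa5 and Rabepk, Pdia3 and Catsper2, Pdia6 and Atp6v1c2, Syvn1 and Mrpl49, Derl2 and Mis12, Atf6 and Gm29733, Atf5 with Nup62 and Il4i1b, Ddit3 with Mbd6 and Mars1, and Ppp1r15a and Tulp2 may not be fully told apart. The table also lists a Calr pseudogene, so the values of Calr are uncertain to that extent.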

How the data were processed

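The deposited table gives one log2 value per gene and library for 18 libraries, the log2 of the authors' normalized count plus 1. Lysates went straight into reverse transcription, and the cDNA was tailed with poly(A) and then amplified and sequenced from both ends, per the labels' protocols. FastQC, Cuffnorm, DESeq 1.22.1 and the mm10 build are named per the submitters' processing notes, which give no role for them. The aligner, the annotation and the use of strand were not given in the sources used here. Amplification can compress or distort levels of rare transcripts. The table holds no read counts, so the depth is unknown and no count model was run.

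Genes were tested with limma 3.58.1 in R 4.3.3 (moderated, with a mean-variance trend, 2-sided) when their mean over the libraries compared was at least 3 and at least 3 libraries were above 0. Each comparison within or between tissues used its 6 libraries, and differences of differences used all 18. Adjusted p-values are Benjamini-Hochberg over all genes tested, and the procedure was tested on simulated data. Levels between genes were not compared. The members and lists were chosen with earlier results of these data known. The values in each library compared are given for Atf4, Hspa5, Xbp1 and Ddit3, for members with the smallest p in each exposure comparison, and for up to 4 called members with the largest difference in each direction between tissues. Of the further pathway genes, those with the smallest p or the largest difference per list are given, as examples, and 1 result is not reported here. Of 116 further genes listed, 2 were not in the table. Promoter sequences are those of RefSeq (GRCm38.p6). Hyou1, Manf, Derl1, Atf6 and Ppp1r15b were not analysed for promoters. The alternatives were another level limit or none, a pseudocount of 0.1, quantile normalization, median centring, no trend, a replicate block, leaving out each library, and the PM2.5 libraries for tissue comparisons.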

Additional observations from a re-analysis of the deposited data

Results flagged for a closer look

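Ddit3 had exposed libraries on opposite sides of the controls in oocytes and cumulus cells, and neither difference was called. All 3 exposed oocyte libraries, at 0.65 to 0.74, were below the controls, at 0.99 to 1.17, and all 3 exposed cumulus libraries, at 3.93 to 3.97, were above theirs, at 3.46 to 3.71. The oocyte difference minus the cumulus difference was -0.70. This difference was not tested at the level used for the report, because Ddit3 lay below it in oocytes. With no limit on level it had an SE of 0.31 and an adjusted p of 0.445 by limma.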

How the results depend on the processing

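Values are on the deposited scale, and depth is unknown, so what depth limits could not be given. Exposure calls among members stayed at 0 except in cumulus cells, with 2 without PM2.5 replicate 1 and 1 (Xbp1, 3.21) without the hemoglobin-rich libraries, an alternative chosen after the data were seen that leaves 1 control; the same alternative gave 1 call among members (Xbp1, 3.22) for cumulus cells minus blastocysts. Genes called for exposure in oocytes went from 9 to 17 at a mean of at least 1 and 5 with no filter. In cumulus cells they went from 8 to 5 with no filter and 49 without the hemoglobin-rich libraries, and in blastocysts from 0 to 2 at a mean of at least 1 and 1 with no filter. Members called between tissues went from 17 to 26 at a mean of at least 1 and 26 with no filter for oocytes minus cumulus cells, from 14 to 24 and 27 for oocytes minus blastocysts, and from 12 to 19 at a mean of at least 1 for cumulus cells minus blastocysts. All genes called went from 3502 to 9275 and 13523, from 3521 to 9138 and 12943, and from 3104 to 7018 and 9073, since more genes were tested. For the differences of differences, genes called went from 8 to 15 at a mean of at least 1, 48 with no filter, 24 with quantile normalization, 3 with median centring and 0 without the hemoglobin-rich libraries (oocytes minus cumulus cells), from 0 to 2, 10, 12 and 3 (oocytes minus blastocysts), and from 9 to 14 at a mean of at least 1, 40 with no filter, 19 with quantile normalization and 3 without the hemoglobin-rich libraries (cumulus cells minus blastocysts). Of member differences, 652 under alternatives kept direction and call, 4 became called, 8 lost the call and 19 changed sign; the causes were not tested. Sign changes were Atf4 in cumulus cells (-0.14 with quantile normalization), Ddit3 between cumulus cells and blastocysts (0.12 with quantile normalization, 0.18 with median centring, 0.13 in PM2.5 libraries) and Xbp1 there (1.02 in PM2.5 libraries).

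Replicate numbers are shared by the groups, and the labels do not say whether they pair the libraries. Correlations of same-numbered deviations were -0.24 to 0.18 between exposure groups of a tissue and -0.17 to 0.12 between tissues of an exposure group. With 3 libraries per group, such values can neither show nor exclude a shared origin. The main tests took the libraries as independent. With a replicate block, members called were unchanged at 0 in the exposure comparisons and in the differences of differences, and at 17, 14 and 12 between tissues. Genes called for exposure were 3 in oocytes, 3 in cumulus cells and 0 in blastocysts, and 1, 0 and 10 for the differences of differences.

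Leaving out each library in turn gave, for exposure, 2 to 12 genes called in oocytes, 6 to 558 among cumulus libraries and 0 to 4 among blastocysts, with 0 to 2 members in cumulus cells and 0 in the others. It gave 17 to 18, 13 to 14 and 11 to 14 members between tissues. For the differences of differences it gave 1 to 70, 0 to 7 and 4 to 90 genes. Ranges that crossed 0 were those of Hspa5 in cumulus cells (-0.45 to 0.11), of Atf4 (-0.034 to 0.51), Xbp1 (-0.16 to 0.12) and Ddit3 (-0.048 to 0.41) in blastocysts, of Xbp1 (-1.09 to 0.53) and Ddit3 (-0.26 to 0.18) between cumulus cells and blastocysts, and of the Atf4 (-0.43 to 0.11) and Ddit3 (-0.068 to 0.39) differences of differences there.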
